A study of Mus musculus with 105 samples.

Results

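The data described here are from single female mouse embryonic stem cells (mESCs) collected 1 day after 2i/Lif withdrawal, split by their content of Nanog mRNA. Of the 400 capture sites of day 1, 356 held at least 40000 UMIs (unique molecular identifiers, each counted as 1 detected mRNA molecule) outside the ERCC spike-in RNAs. Of these cells, 98 had no Nanog UMI and are called Nanog-free, 108 had 10 or more and are called Nanog-high, and the 150 with 1 to 9 are called intermediate. The Nanog-free and Nanog-high cells together made up 206 of the 2000 capture sites of the single-cell series. Since the groups were chosen on Nanog UMIs, the Nanog values are a description of that choice, and they carry no test.

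TX1072 is a female F1 hybrid mESC line from a cross of C57BL/6J (B6) and Cast/EiJ (Cast) mice, so that each X chromosome comes from another strain. In all cells the B6 copy of Xist sits behind a promoter that responds to doxycycline, and Rosa26 holds the transactivator. All were from the same clone of the line, and the Nanog groups shared their culture and treatment. Cells of day 0 were kept in medium with serum, Lif and 2i. The study sequenced single cells at days 0 to 4 of differentiation with a strand-specific 3' end protocol on a C1-HT microfluidic system, and bulk RNA of the same line in 3 replicates per day. Nanog-free and Nanog-high cells of day 1 came from a single culture, so the comparison between them has no replicate. Intervals on it cover counting error at most. The cells of day 1 were loaded into a compartment of the capture chip, with 10 columns of 40 sites. Each column was made into a library of its own, and all columns use the same 40 cell barcodes. These 10 libraries are technical repeats within the culture.

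Nanog is a homeodomain transcription factor of the naive pluripotency network, in which Oct4 (Pou5f1) and Sox2 activate it and in which it works beside Esrrb, Klf4, Tfcp2l1, Tbx3 and Prdm14. The MEK and GSK3 inhibitors (2i) and the cytokine Lif hold mESCs in this state. Once they are withdrawn, cells lose the naive factors while keeping Oct4 and Sox2, and gain genes of the formative state and the post-implantation epiblast such as Pou3f1, Fgf5 and the de novo DNA methyltransferases. Naive factors repress Xist, the noncoding RNA that starts X-chromosome inactivation, and Xist is upregulated as they are lost.

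Nanog lies on chromosome 6 (plus strand, 122707489 to 122714633, mm10). The 250 bases before its first RefSeq start site are shown because they hold the composite element at which Oct4 and Sox2 are known to bind, with an octamer part (TTTGCAT) and a Sox part (ACAATG) 1 base apart, both in capitals (GRCm38.p6, chr6:122707239-122707488, plus strand). The 2 parts span bases 75 to 62 before the start. The start of Zfp42, which encodes Rex1 and is another gene of the naive list below, is shown beside it for comparison (chr8:43307010-43307259, minus strand), with the octamer part TTTGCAT in capitals.
Nanog: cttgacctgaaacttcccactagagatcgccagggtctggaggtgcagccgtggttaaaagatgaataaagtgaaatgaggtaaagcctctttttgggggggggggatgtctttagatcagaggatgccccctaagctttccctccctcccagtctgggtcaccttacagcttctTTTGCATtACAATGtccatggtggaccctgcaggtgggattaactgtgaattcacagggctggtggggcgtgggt
Zfp42: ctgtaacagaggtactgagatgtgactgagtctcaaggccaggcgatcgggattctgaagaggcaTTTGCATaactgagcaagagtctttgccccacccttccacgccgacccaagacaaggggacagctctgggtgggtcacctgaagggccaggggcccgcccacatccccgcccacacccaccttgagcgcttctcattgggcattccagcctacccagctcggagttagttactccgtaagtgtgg
Searched on both strands of the 32851 RefSeq promoter windows of 300 bases, the 2 parts at this spacing occurred in 2 windows (0.00609%), which belong to the 2 annotated starts of Nanog. The letters searched for are those of the Nanog element itself, so the match at Nanog was fixed in advance. Variants of the parts were not searched, so the count does not show that other genes lack such an element. A match is a description of the letters. The octamer part alone, which the pair of parts contains, occurred in 1520 windows (4.63%). Of the listed genes with a window, it was present in 1 of 10 naive factors (Zfp42), 1 of 10 core pluripotency genes (Sox2) and 0 of 13 formative genes.

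At day 0, 312 of 325 cells had 10 or more Nanog UMIs and none had 0, and Nanog stood at 358 CPM (its UMIs summed over the cells and scaled to a common total of UMIs outside ERCC). At day 1 it stood at 60.0 CPM, with 27.5% of cells at 0 (95% Clopper-Pearson interval 22.95% to 32.5%) and 30.3% at 10 or more (25.6% to 35.4%). At day 2, 256 of 369 cells were at 0 and 26 were at 10 or more. Day 3 had 105 of 302 cells at 0 and 81 at 10 or more, and day 4 had 60 and 152 of 315. The labels give 2 sequencing runs for the capture sites of day 1, one of them in another mode, and 1 run for those of each other day. Run and day therefore cannot be told apart in comparisons of day 1 with other days, here and below, whereas the Nanog groups within day 1 share the runs.

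Within day 1 the UMI counts formed a graded distribution with a peak at 0 and no gap between the groups. There were 98 cells at 0 UMIs, 41 at 1 and 20 at 2, and around the upper threshold there were 9 cells at 9 UMIs, 7 at 10 and 11 at 11. The Nanog-high cells ranged from 10 to 74 UMIs with a median of 16, and their summed level was 144 CPM, below the 358 CPM of day 0. The intermediate cells stood at 31.5 CPM.

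**Figure D1:**
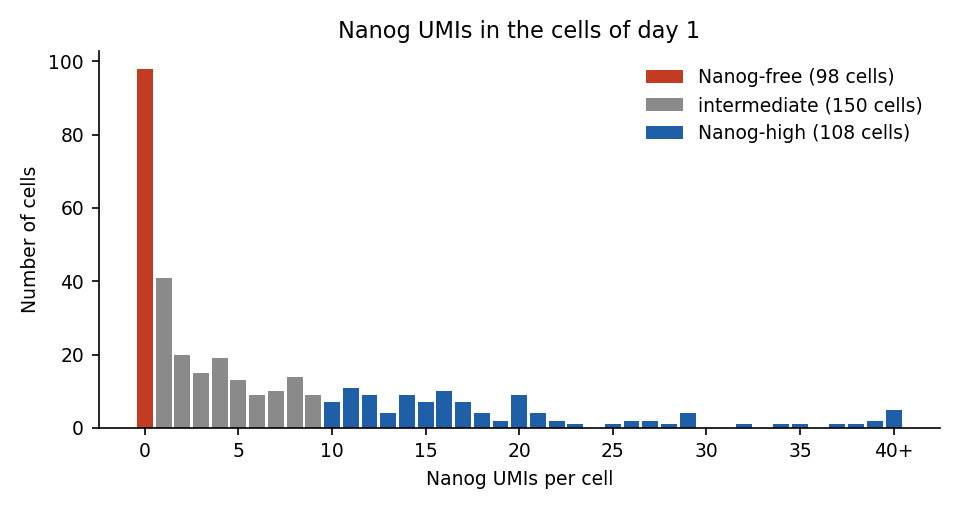
Number of cells of day 1 (y axis) at each Nanog UMI count (x axis, with 40 or more drawn together), with Nanog-free cells in red, intermediate cells in grey and Nanog-high cells in blue. The 98 cells at 0 form the highest bar, and counts run on without a gap through the threshold of 10 UMIs.

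A count of 0 does not show that a cell lacked Nanog mRNA. ERCC spike-in RNAs do not come from the cells, and the 4 of them with a mean within 2-fold of Nanog's 7.50 UMIs were at 0 in 29.2% to 55.9% of the same cells and at 10 or more in 22.2% to 43.3%. Their ratio of variance to mean was 16.7 to 20.9, against 13.0 for Nanog. Such ratios are above that of Poisson counts, so the Poisson intervals below are too narrow. Among the 3655 genes with a mean within 2-fold of Nanog's, the median gene was at 0 in 29.5% of cells and had a ratio of 12.5. Nanog lay between the quartiles of these genes in both measures (18.3% to 41.01% of cells at 0, and ratios of 10.6 to 14.4).

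The groups differed somewhat in depth and quality. The median Nanog-free cell had 118076 UMIs and 6097.5 genes (44726 to 191683 UMIs), the median intermediate cell 122964 UMIs, and the median Nanog-high cell 132061 UMIs and 6553 genes (68379 to 218153 UMIs). Mitochondrial transcripts made up 3.66% of UMIs in Nanog-free and 3.58% in Nanog-high cells, and spike-ins 0.151% and 0.137%. Most of the mitochondrial UMIs, 2.28% and 2.14% of all UMIs, were from RNAs that encode no protein, nearly all from the ribosomal RNAs mt-Rnr1 and mt-Rnr2. The study's own filter on cell images, viability and quality kept 83 of 98 Nanog-free cells (84.7%) and 104 of 108 Nanog-high cells (96.3%). Cells are called XO-like if their X-linked UMIs came nearly all from the same allele, as in cells with a single X. The limits were a B6 fraction under 0.2 or over 0.8, and no Xist UMI assigned to an allele. XO-like cells numbered 7, 4 and 0 in the Nanog-free, intermediate and Nanog-high groups, and loss of an X was not tested. Doublets were judged by the study from images of the capture sites, and no doublet caller was run here. All main values below were recomputed without the cells the study removed, without XO-like cells, and with every cell thinned to 40000 UMIs.

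The groups were also spread unevenly over the capture columns. Columns 1 to 10 held 18, 9, 9, 7, 6, 5, 15, 11, 13 and 5 Nanog-free cells, and 5, 9, 15, 16, 15, 15, 5, 10, 5 and 13 Nanog-high cells. Columns 1, 7 and 9 had the lowest Nanog level (24.8, 36.2 and 37.4 CPM), and column 4 had the highest (95.3 CPM). The ratio between the groups was therefore also taken within each column and with each column left out. Of 60 named genes past 1.5-fold (Gpnmb left out), 17 came under 1.5-fold without at least 1 of the columns. They were Klf2, Zfp42, Tet2, Foxd3, Lef1, Sox3, Cldn6, Foxp1, Spry1, Il6st, Lefty1, Slc2a3, Ccnd2, Cdkn1c, Pax6, Nes and Tubb3, and the calls on them below rest on all columns together.

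Of 9239 genes with at least 200 UMIs over both groups (Nanog, which defined the groups, left out), 762 were more than 1.5-fold lower in Nanog-free than in Nanog-high cells (8.25%) and 497 were more than 1.5-fold higher (5.38%). At 2-fold there were 216 and 113. The median log2 ratio over all genes tested was -0.01, near 0 by the scaling of each group to its own total. In intermediate cells 73.1% of the genes on the lower side and 71.4% of those on the higher side had a level between those of the 2 groups, against 41.01% of all genes. A wider gap holds a level in between more often, so that this contrast follows in part from the choice of the genes. By the levels in each column, where a column with no UMI in either group counts to neither side, the direction was the same in 10 of 10 columns for 28 of the 762 and 11 of the 497, against 57 of the 9239. Genes chosen for a large ratio over all columns share a direction between columns more often, so this contrast also follows in part from the choice. With every cell thinned to 40000 UMIs, 288 and 182 of 6226 genes were past 1.5-fold. With 1 culture these counts are a description of these cells.

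Naive pluripotency factors were lower in Nanog-free cells as a group. Of 15 on the list, 14 had enough UMIs, and 11 of them were past 1.5-fold lower and none past 1.5-fold higher, with a median log2 ratio of -0.86 against -0.01 for all genes. The median was below 0 in 10 of 10 columns and ranged from -1.52 to -0.48. The summed level of the list was 1430 CPM in Nanog-free, 1723 CPM in intermediate and 2253 CPM in Nanog-high cells. In Nanog-free cells it lay between 971 and 1751 CPM over the 10 columns, and in Nanog-high cells between 1763 and 2682 CPM, so the columns of the 2 groups did not overlap. Single cells did overlap. The lowest, median and highest cell had 393, 1422 and 3471 CPM in the Nanog-free group and 592, 2259 and 4113 CPM in the Nanog-high group, and 15.3% of Nanog-free cells were above the median of the Nanog-high cells.

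**Figure D2:**
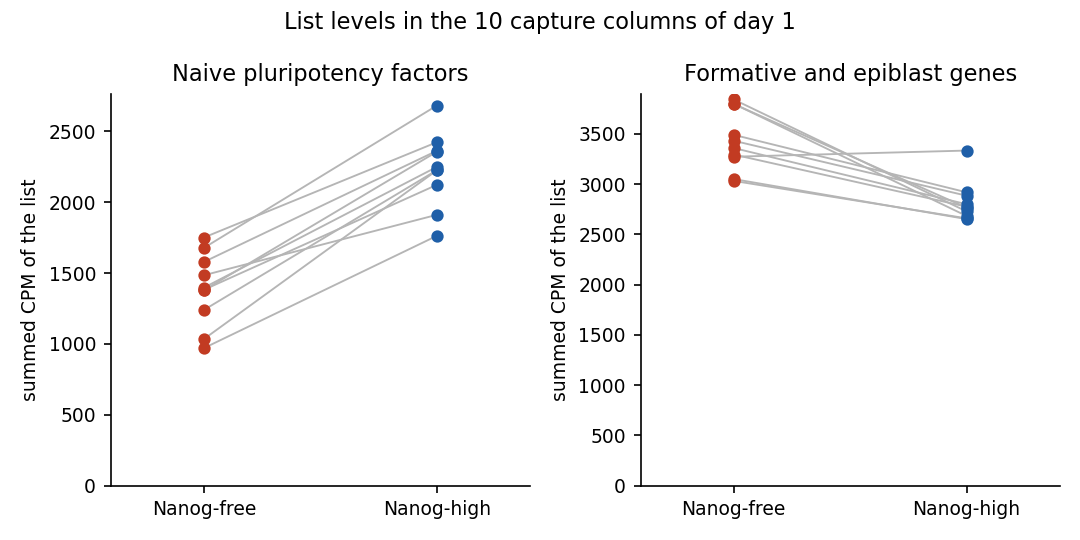
Summed CPM (y axis, from 0) of the naive factors (left) and of the formative and epiblast genes (right) in Nanog-free cells (red) and Nanog-high cells (blue) of each of the 10 capture columns, with a line joining the values of a column. The naive sum was lower in Nanog-free cells in 10 of 10 columns, and the formative sum was higher in 9 of 10.

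Esrrb, an orphan nuclear receptor that can stand in for Nanog, was at 168 CPM (95% Poisson interval 160 to 175) in Nanog-free and 307 CPM (298 to 316) in Nanog-high cells, a log2 ratio of -0.87 that was negative in 10 of 10 columns (-1.63 to -0.22). Tfcp2l1, a target of Lif and Stat3 signalling, was at 144 CPM (137 to 151) and 285 CPM (276 to 293), with a log2 ratio of -0.98 and the same direction in 9 of 10 columns. The T-box factor Tbx3 was at 30.4 CPM (27.3 to 33.8) and 80.9 CPM (76.4 to 85.7), a log2 ratio of -1.41 that was negative in 10 of 10 columns. For each of these genes the intermediate cells lay between the groups, at 216 CPM for Esrrb, 180 CPM for Tfcp2l1 and 43.7 CPM for Tbx3. The cells overlapped for each gene, and the median cell had 154 against 287 CPM of Esrrb, 100.0 against 217 CPM of Tfcp2l1 and 6.67 against 61.4 CPM of Tbx3.

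Prdm14, a PR domain protein that keeps Fgf signalling and de novo DNA methylation low in naive cells, showed the greatest difference of the list. It had 16 UMIs in 4 of 98 Nanog-free cells and 259 UMIs in 33 of 108 Nanog-high cells, that is 1.398 CPM (0.799 to 2.27) against 17.8 CPM (15.7 to 20.2) and a log2 ratio of -3.63. It was lower in 9 of 10 columns, and had no UMI in either group in column 1. Left out in turn, the columns gave -4.96 (without column 9) to -3.30. Of its 16 UMIs in Nanog-free cells, 11 were in a single cell. The log2 ratio of Prdm14 was -5.72 among cells the study retained and -1.79 with cells thinned and regrouped at 40000 UMIs.

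The other factors past 1.5-fold were the nuclear receptor Nr5a2 (log2 ratio -1.14, 14.4 against 31.8 CPM), the F-box gene Fbxo15 (-0.93, 70.4 against 134 CPM), the Krüppel-like factors Klf4 (-0.89, 49.3 against 91.3 CPM) and Klf2 (-0.59, 221 against 333 CPM), the Akt co-activator Tcl1 (-0.86, 38.1 against 69.0 CPM), Zfp42 (-0.62, 132 against 204 CPM) and the methylcytosine dioxygenase Tet2 (-0.61, 77.1 against 118 CPM). Klf4, Klf2, Fbxo15, Tcl1, Zfp42 and Tet2 were lower in 9 of 10 columns, and Nr5a2 in 7. Klf5 (-0.33), Gbx2 (-0.27) and the orphan receptor Nr0b1 (-0.24) did not pass 1.5-fold, and Dppa3 had too few UMIs (67 and 82).

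The core pluripotency genes, which stay on in the epiblast, had a median near that of all genes (-0.10 against -0.01). Of 16 tested, 1 was past 1.5-fold lower, the forkhead factor Foxd3 (-0.62, 24.5 against 37.7 CPM, lower in 7 of 10 columns), and none was past 1.5-fold higher, counts that are near the 8.25% and 5.38% of all genes. Pou5f1, which encodes Oct4, had a log2 ratio of -0.23, Sox2 of -0.07, and Sall4 of -0.29. Lin28a, an RNA-binding protein that inhibits the maturation of let-7, had the highest value of the list, 0.56.

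Formative and epiblast genes stood to the higher side in their median, but not as a whole. Of 20 on the list, 19 had enough UMIs, of which 13 were above 0 and 6 below (Zic5, Tcf15, Etv5, Fgf15, Nodal and Phf19). Of the 19, 6 were past 1.5-fold higher and none was past 1.5-fold lower (beside 5.38% and 8.25% of all genes), with a median of 0.29. Their summed level was 3421 CPM in Nanog-free, 3138 CPM in intermediate and 2810 CPM in Nanog-high cells. By column it ran from 3032 to 3842 CPM in the first and from 2653 to 3334 CPM in the last, and the ranges overlapped, since column 10 had 3273 against 3334 CPM. The column medians of the log2 ratio ran from 0.01 to 0.92, and 1 SD over the columns around the median of 0.29 reached from -0.03 to 0.61.

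The POU factor Pou3f1 was at 70.9 CPM (66.1 to 75.9) in Nanog-free and 39.5 CPM (36.3 to 42.8) in Nanog-high cells, a log2 ratio of 0.84 with the same direction in 8 of 10 columns. Fgf5, a growth factor gene of the epiblast, was at 42.1 CPM (38.4 to 46.1) and 22.5 CPM (20.2 to 25.1), a ratio of 0.90 that held in 7 of 10 columns. The zinc-finger factor Sall2 (1.75, higher in 8 of 10 columns), the Wnt effector Lef1 (0.62, 8 of 10), the claudin Cldn6 (0.60, 7 of 10) and the Sox factor Sox3 (0.63, 6 of 10) were the others. The de novo DNA methyltransferases did not reach 1.5-fold, but Dnmt3b (0.45, 773 against 565 CPM) was higher in 10 of 10 columns, Dnmt3l (0.23) in 9 and Dnmt3a (0.38) in 8. Otx2 (0.10), Etv5 (-0.20) and Nodal (-0.14) were near the median of all genes.

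**Figure D3:**
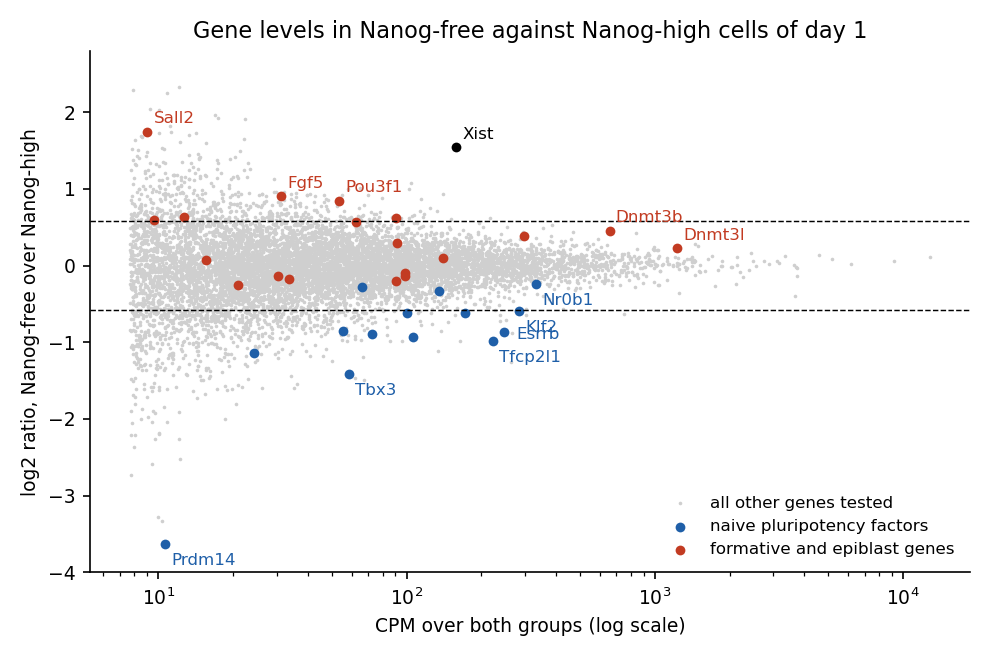
log2 ratio of Nanog-free over Nanog-high cells (y axis) against the CPM over both groups (x axis, log scale) for the genes tested, with naive factors in blue, formative and epiblast genes in red, Xist in black and dashed lines at 1.5-fold. Gpnmb, which had no UMI in Nanog-free cells, is not drawn. All 14 naive factors lie below 0, and the spread of all genes widens at low CPM.

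In the signalling lists few members passed 1.5-fold. With 8.25% of all genes past it on the lower and 5.38% on the higher side, 1 member of a list of about 10 is near the share of all genes, and such counts are values of single genes and say nothing of the list. In the list of the BMP ligand and Id genes, 1 of 7 was past 1.5-fold lower and 1 higher. Bmp4, the ligand, was at 33.3 CPM (30.0 to 36.8) in Nanog-free, 48.5 CPM in intermediate and 93.9 CPM (89.0 to 99.0) in Nanog-high cells, a log2 ratio of -1.49 that was negative in 8 of 10 columns. Id3, an inhibitor of bHLH factors and a target of BMP signalling, had the opposite sign with 160 against 95.3 CPM (0.75, higher in 8 of 10 columns). Among 9 tested genes of the Nodal list the SMAD co-repressor Skil was the only one past 1.5-fold higher, at 148 CPM (141 to 155) against 70.2 CPM (66.0 to 74.6), a ratio of 1.08 in the same direction in 9 of 10 columns. Lefty1, an inhibitor of Nodal, was the only one past 1.5-fold lower (-0.67), and it rested on 12 Nanog-free and 22 Nanog-high cells and was lower in 7 of 10 columns.

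Of 8 tested Lif-Stat3 targets 3 were past 1.5-fold lower and none higher (median -0.33), and they were Klf4 and Tfcp2l1, which the naive list also holds, and Il6st (-0.85, 30.1 against 54.4 CPM, lower in 7 of 10 columns), which encodes the signalling subunit of the Lif receptor. Of 14 ERK targets and feedback genes only Spry1 passed 1.5-fold (-0.65, lower in 7 of 10 columns), and the median was 0.03. Of 5 tested Wnt targets only Lef1 passed, and the median was 0.01. Among 11 tested drivers of exit from the naive state the forkhead factor Foxp1 was past 1.5-fold higher (0.61, 127 against 83.1 CPM, higher in 6 of 10 columns), and the median was 0.02. Tet2 was the 1 of 9 DNA methylation writers and erasers past 1.5-fold (median 0.13).

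Slc2a3, the gene of the glucose transporter Glut3, was the 1 of 12 tested glycolysis genes past 1.5-fold (-0.64, 230 against 358 CPM, lower in 9 of 10 columns), and the median of the list was 0.03. It lies beside Nanog on chromosome 6 (122727809 to 122801640, minus strand). Of the listed genes next to Nanog only Slc2a3 and Gdf3 (-0.13) had enough UMIs.

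In the housekeeping and cell cycle lists few or no members passed 1.5-fold. With 8.25% of all genes past it on the lower and 5.38% on the higher side, lists of this size hold few such genes in any case, and a count of 0 is a value and says nothing particular to a list. Some lists had small differences to a common side. Of the G2 and M phase genes 17 of 20 were below 0 and 3 above, of the S phase genes 15 of 21 were above 0 and 6 below, and of the protein-coding genes of mitochondrial DNA 7 of 7 were below 0. That list summed to 1.38% and 1.44% of UMIs, without the ribosomal RNAs that made the mitochondrial total above the higher in Nanog-free cells. The median of the list was below 0 in 6, 2 and 7 of 10 columns. No gene passed 1.5-fold among 21 S phase genes (median 0.14), 20 G2 and M phase genes (-0.11), 11 tested Polycomb genes (0.09), 10 tested p53 targets (-0.01), 8 tested stress response genes (-0.13), 26 cytosolic ribosomal protein genes (0.00), 7 tested mitochondrially encoded genes (-0.05) and 6 tested germline genes (0.05, summed level 571 against 513 CPM, of which Tex19.1 made up 352 and 290.0 CPM). Of 7 tested G1 cyclins and CDK inhibitors the D-type cyclin Ccnd2 was past 1.5-fold lower (-0.59, 7 of 10 columns) and the CDK inhibitor Cdkn1c higher (0.93, 7 of 10 columns), with a median of 0.00. The value of Cdkn1c was 0.57 without column 8 and 1.93 without column 10. Of 10 tested cytoskeleton and junction genes only Cldn6 passed (median 0.13).

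Markers of other cell types were then summed. A gene at 0 UMIs can be one that this 3' end counting does not see, since the mitochondrial genes mt-Co2, mt-Co3 and mt-Atp6 were also at 0 in both groups and Actg1 had 6 and 8 UMIs. Primitive endoderm markers summed to 519 CPM in Nanog-free and 560 CPM in Nanog-high cells, of which Sparc made up 412 and 451 CPM, and 0 of 6 tested passed 1.5-fold. Pdgfra was at 0 UMIs in both groups, Gata4 in Nanog-free and Foxa2 in Nanog-high cells. Trophectoderm markers summed to 88.6 and 80.0 CPM, of which Gata3 made up 38.1 and 31.6 CPM, with Cdx2, Elf5 and Hand1 at 0 in both groups and Krt7 at 0 in Nanog-free cells. Primitive streak and mesoderm markers summed to 24.7 and 30.1 CPM, of which Eomes made up 22.5 and 23.3 CPM, with 4 and 5 of 10 genes at 0 (T and Tbx6 in both groups). Fibroblast markers summed to 35.6 and 43.3 CPM, of which Thy1 made up 27.2 and 37.1 CPM, with 3 and 2 of 8 at 0 (Col3a1 and Postn in both groups). The 10 listed markers of the 2-cell-like state together had 4 UMIs in Nanog-free and 0 in Nanog-high cells. Neural markers summed to 58.6 and 58.1 CPM, with Pax6 (0.60) and Nes (0.69) past 1.5-fold higher, each in 7 of 10 columns, and Tubb3 (-0.65) past 1.5-fold lower in 8, each on fewer than 500 UMIs per group, and with 2 and 3 of 8 genes at 0 (Hes5 in both groups). The part of such cells in the results was not tested.

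Among genes with a name of their own whose ratio kept its sign without each of the capture columns, the 15 lowest ratios were led by Gpnmb, Prdm14, Stk33 and Pramel6. The 249 Gpnmb UMIs of Nanog-high cells were nearly all from a single cell (237), against 0 in Nanog-free cells, and no ratio is given. The kinase gene Stk33 had 19 against 249 UMIs (log2 ratio -3.33), with 63 of the 249 in a single cell, and Pramel6, of the Prame-like family of naive cells and early embryos, had 19 against 240 UMIs (-3.28). Pramel6 was lower in 9 of 10 columns and Stk33 in 8, with no Stk33 UMI in column 1. Grasp (-2.73, 21 against 181 UMIs) was lower in 10 of 10. Vstm5, Fam169b, Trpm4, Col5a3, Notch4, Lrrc31, Peg12, Tmem159, Npm2 and Tmem130 followed with log2 ratios from -2.59 to -2.06 and at most 279 UMIs in a group. Of the 10, 8 or 9 columns were on the lower side for 6, 7 columns for Lrrc31, Trpm4 and Peg12, and 5 columns for Npm2, which was higher in 4. A single capture column moved several of these ratios by over 1.5-fold: that of Pramel6 was -2.67 without column 4 and -4.10 without column 7, of Vstm5 -3.29 without column 4, of Trpm4 -1.73 without column 4 and -3.03 without column 9, of Col5a3 -2.89 and of Tmem159 -3.32 without column 8, and of Tmem130 -4.29 without column 1 and -1.26 without column 6.

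The 15 highest, taken by the same rule, ran from 2.32 to 1.66 and were led by Tmem54 (250 against 63 UMIs, 2.32), Topaz1 (222 against 59, 2.25), Tspan6 (2.04) and the homeobox gene Msx1 (200 against 62, 2.03). The iron exporter Slc40a1 was at 28.9 against 7.37 CPM (1.97, higher in 8 of 10 columns), and Enpp2, which encodes autotaxin, at 37.8 against 10.1 CPM (1.91, higher in 8 of 10). The zinc-finger gene Zfp27 (29.5 against 7.78 CPM, 1.92) was the only one of the 15 that was higher in 10 of 10 columns. Tex11, Sall2, Oas2, Zfp775, Fermt1, Ric8b, Ptprz1 and Papolb made up the rest, and were higher in 6 to 9 of 10 columns, as were Topaz1 and Msx1 in 6. Without column 4 the log2 ratio of Msx1 was 2.89, and without column 6 that of Topaz1 was 2.95 and that of Ptprz1 2.33. Both sets of 15 hold mostly genes of low level, where the ratio varies most.

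The summed naive and formative levels were also taken over classes of the Nanog count. Cells with 0, 1, 2 to 4, 5 to 9, 10 to 19 and 20 or more Nanog UMIs had a summed naive level of 1430, 1445, 1807, 1863, 2184 and 2364 CPM. Cells with 0 and with 1 UMI thus had nearly the same level, and so did those on either side of the upper threshold, with 1728 CPM at 9 UMIs and 1753 CPM at 10. The formative level of the same classes was 3421, 3182, 3183, 3062, 2907 and 2655 CPM. Esrrb went from 168 to 359 CPM between the first class and the last, and Dnmt3b from 773 to 510 CPM. Other genes did not go in steady steps. Bmp4 was at 33.3, 29.3, 65.0, 48.2, 85.2 and 108 CPM in the 6 classes, Prdm14 at 1.398, 5.04, 8.83, 1.31, 11.1 and 28.6 CPM, and Xist at 251, 119, 101, 111, 110.0 and 47.2 CPM.

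Set among the days, the Nanog groups of day 1 lay between day 0 and day 2 in both lists. The naive list summed to 4616 CPM at day 0, 2253 in Nanog-high, 1430 in Nanog-free cells and 517 at day 2, and the formative list to 532, 2810, 3421 and 4006 CPM. Thus Nanog-high cells had left the level of day 0 by more than the groups differed from each other. The core list went from 8071 CPM at day 0 over 6919 and 6373 to 5921 CPM at day 2.

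**Figure D4:**
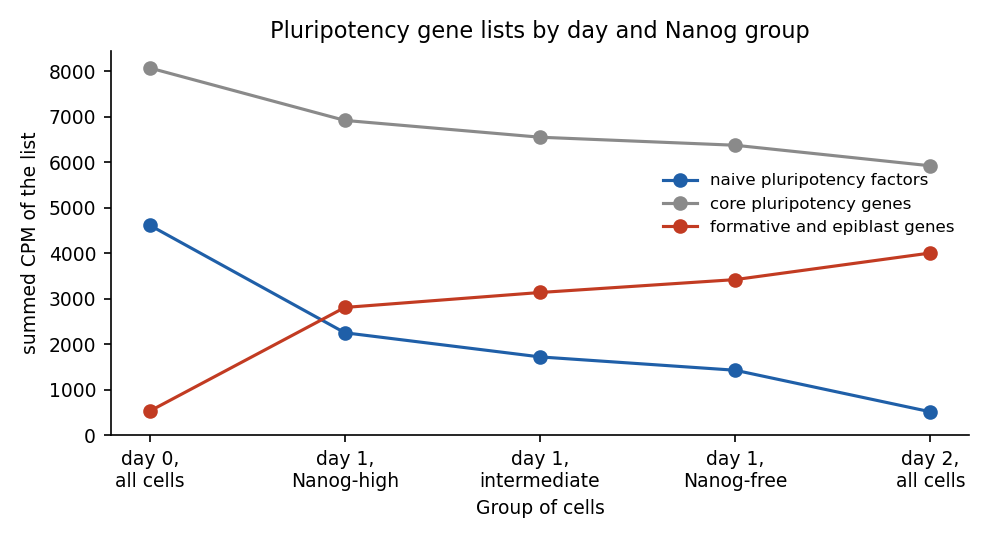
Summed CPM (y axis, from 0) of the naive factors (blue), core pluripotency genes (grey) and formative and epiblast genes (red) in all cells of day 0, the 3 Nanog groups of day 1 and all cells of day 2 (x axis). The naive sum falls from 4616 to 517 CPM along this order and the formative sum climbs from 532 to 4006 CPM, with the Nanog groups of day 1 in between.

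Xist was higher in Nanog-free cells. It stood at 251 CPM (242 to 260) in Nanog-free, 110 CPM in intermediate and 85.8 CPM (81.1 to 90.7) in Nanog-high cells, a log2 ratio of 1.55 that was positive in 10 of 10 columns (0.29 to 3.04). The share of cells with any Xist UMI was alike (76.5%, 73.3% and 74.1%), whereas the share with more than 5 UMIs, which the study used to call a cell Xist-positive, was 63.3% (62 of 98, 52.9% to 72.8%), 53.3% (80 of 150) and 48.1% (52 of 108, 38.4% to 58.0%). The difference was 15.1 percentage points. Its interval of 0.856 to 28.7, built from the 2 Clopper-Pearson intervals, takes each cell as independent. It covers counting error alone and is no test. The difference was 26.2 points with every cell thinned to 40000 UMIs, 24.5 points among cells the study retained, and 21.2 points at a threshold of more than 10 UMIs. As background, 6.46% of cells of day 0, before Xist is upregulated, had any Xist UMI and 1.54% had more than 5 at a median depth of 137374 UMIs, against 123204 at day 1. By column the difference in the share with more than 5 UMIs ran from -11.1 to 48.9 points, and was positive in 6 and negative in 4 of 10.

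**Figure D5:**
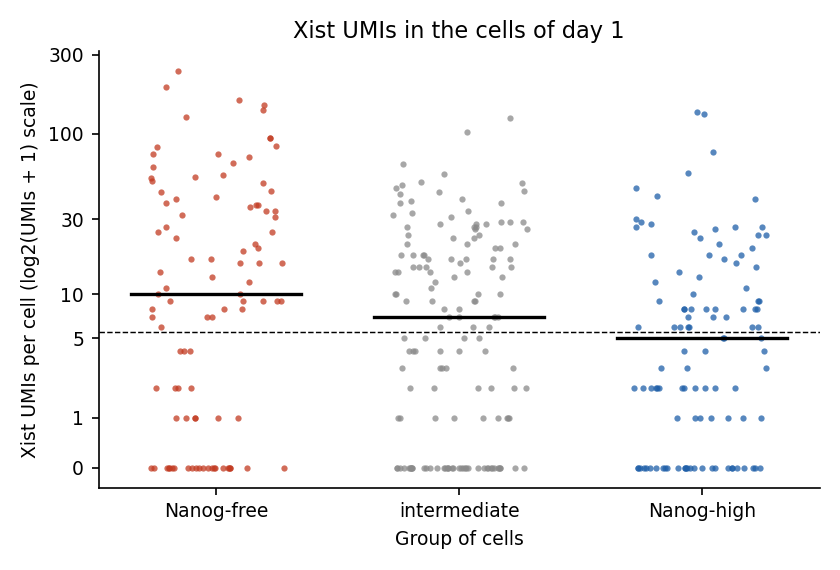
Xist UMIs per cell (y axis, log2 of the UMIs plus 1) in the 98 Nanog-free, 150 intermediate and 108 Nanog-high cells of day 1, with a point per cell, a black bar at the median and a dashed line between 5 and 6 UMIs. The medians are 10, 7 and 5 UMIs, and the cells of the 3 groups overlap over most of the range.

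Among cells with more than 5 Xist UMIs the median was 31.5 UMIs in Nanog-free, 18 in intermediate and 14.5 in Nanog-high cells, and 6, 2 and 2 cells had more than 100. The naive list was lower in Nanog-free cells at either level of Xist, with a median log2 ratio of -0.80 among cells with more than 5 Xist UMIs and of -0.76 among the others. Of Xist UMIs that could be assigned to an allele, 79.4% were from the B6 X in Nanog-free, 70.9% in intermediate and 75.6% in Nanog-high cells. The study saw a higher Xist level from B6 in single cells but not in bulk RNA taken alongside. It proposes a possible detection bias of the single-cell protocol, so these shares may not be the true output of the alleles. Of cells with more than 5 assigned Xist UMIs, 18 of 35, 14 of 34 and 8 of 18 had UMIs from both alleles.

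Pim2, an X-linked serine/threonine kinase gene, was the other member of the list of X-inactivation regulators past 1.5-fold. It was at 192 CPM (184 to 200) in Nanog-free, 157 CPM in intermediate and 100 CPM (95.3 to 106) in Nanog-high cells, a log2 ratio of 0.93 that was positive in 10 of 10 columns. Lbr, which tethers the Xist-coated chromosome to the nuclear lamina, was higher in 10 of 10 columns without reaching 1.5-fold (0.52). Tsix, the antisense transcript of Xist, had a log2 ratio of -0.19, and Rlim, which encodes an activator of Xist, of 0.14. The median of the 11 tested was 0.13.

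The summed UMIs of X-linked genes besides Xist over those of autosomal genes gave 0.0538 in Nanog-free and 0.0565 in Nanog-high cells. The log2 ratio was -0.07, and became -0.03 without the XO-like cells. With those cells included, the log2 ratio was -0.04 among cells with more than 5 Xist UMIs, -0.16 among cells with 5 or fewer (36 Nanog-free and 56 Nanog-high cells) and -0.23 among cells with none (23 and 28 cells, 0.0481 against 0.0563). XO-like cells by definition have no Xist UMI assigned to an allele, which places them more readily among cells with few or no Xist UMIs. Values by Xist level without XO-like cells are not given, and their part in these ratios was not tested. Of 365 X-linked genes 8.77% were past 1.5-fold lower and 6.03% higher, against 8.24% and 5.35% of 8862 autosomal genes.

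Nanog-free and Nanog-high cells were then compared in the same way at the later days, which hold other cells. Days 2, 3 and 4 had 256, 105 and 60 Nanog-free and 26, 81 and 152 Nanog-high cells. All values of day 2 thus rest on few Nanog-high cells. At day 2, 13.2% of 9799 genes were past 1.5-fold lower in Nanog-free cells and 16.1% higher, at day 3 7.73% and 8.00% of 9000, and at day 4 15.8% and 16.1% of 10352. Of genes on the lower side at day 1 and tested at day 2, 34.0% (211 of 620) were also lower at day 2, which is 18.8% of the 1120 lower there, beside 12.7% of all genes tested on both days, and 17.3% were higher there, beside 13.6%. For the higher side it was 36.3% (166 of 457) and 13.9% of 1197, beside 13.6%, and 8.53% were lower there, beside 12.7%. At day 3 the shares were 17.0% lower (15.2% of 600, beside 7.203%), with 13.3% of the same genes on the higher side, and 16.2% higher (11.1% of 566, beside 6.79%), with 8.51% of the latter genes on the lower side. At day 4 they were 15.4% lower (7.84% of 1262, beside 14.5%) and 20.3% higher (7.41% of 1160, beside 13.3%), and 28.3% of the genes on the lower side at day 1 were on the higher side and 19.4% of those on the higher side at day 1 were on the lower side.

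The naive factors had a median log2 ratio of -2.01 at day 2 (10 of 12 tested past 1.5-fold lower) and -0.997 at day 3 (6 of 11), but 0.00 at day 4 (2 of 9 lower and 2 higher). Esrrb was lower in Nanog-free cells on each day, with -3.24, -1.74 and -1.40. Tfcp2l1 was -2.36, -0.28 and 0.65, and Prdm14 had 4 UMIs against 129 at day 2 and 0 against 46 and 111 at days 3 and 4. Formative genes had a median of 0.69, 0.33 and -0.93, so that their sign at day 4 was the opposite of that at day 1. Xist was also higher in Nanog-free cells at day 2 (778 against 182 CPM). The shares of cells above 5 UMIs there were 86.3% (81.5% to 90.3%) and 61.5% (40.6% to 79.8%, of 26 Nanog-high cells). At day 3 Xist was higher with nearly equal shares of such cells (603 against 380 CPM, 61.9% and 58.0%). At day 4 it was lower (286 against 392 CPM, 46.7% and 67.1%).

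Bulk RNA of TX1072 gave a measure of the same genes in other libraries, with 3 replicates per day, of which replicate 1 was from the cell population of the single cells, and between 19827011 and 39628784 counts per library. From day 0 to day 1, 23.4% of 18871 genes fell and 23.5% rose at an adjusted p under 0.05 (edgeR quasi-likelihood test, Benjamini-Hochberg), and from day 1 to day 2, 18.9% fell and 20.3% rose. Both comparisons share the day 1 libraries, so they are given side by side. The fit takes libraries as unpaired, although the replicate numbers pair them. Bulk values below are from this fit unless stated, and counts with the pairing are given near the end. The 752 genes on the lower side in Nanog-free cells that were in the bulk table fell in 39.2% of cases from day 0 to day 1 (295 genes, 12.8% of all 2299 that fell among 9050 genes in both tables) and in 43.1% from day 1 to day 2 (324 genes, 16.1% of 2014), beside 25.4% and 22.3% of those 9050. The 489 genes on the higher side rose in 41.1% (201 genes, 9.61% of 2091) and 34.2% of cases (167 genes, 11.4% of 1468), beside 23.1% and 16.2%. Bulk RNA cannot tell fewer expressing cells from less RNA per cell.

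Nanog itself was at 1050, 926 and 1262 CPM in the 3 bulk replicates of day 0, 206, 202 and 259 CPM at day 1 and 65.6, 45.3 and 54.3 CPM at day 2. It fell by 2.28 on the log2 scale in the first day (SE 0.17, adjusted p = 5.7e-09, edgeR) and by 2.01 in the second (SE 0.17, adjusted p = 5.0e-08), and replicates of different days did not overlap. Among the 9050 genes also tested in single cells, 25.4% fell and 23.1% rose in the first day, and 22.3% fell and 16.2% rose in the second. Of the 15 naive factors 13 fell and 2 rose in the first day, and 14 fell and 1 rose in the second. Tbx3 was at 152, 196 and 213 CPM, then 24.1, 28.9 and 30.6 CPM, then 8.34, 5.68 and 5.54 CPM, and Prdm14 fell by 3.71 and 1.70. Esrrb fell by 0.75 in the first day and by 2.39 in the second. Nr0b1 and Gbx2, which did not pass 1.5-fold between the Nanog groups, were those that rose in the first day (1.26 and 3.10), and Dppa3 was the one that rose in the second (2.22).

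Bmp4 rose and then fell in bulk, with 4.09, 7.35 and 4.68 CPM at day 0, 31.9, 49.1 and 41.1 CPM at day 1 and 8.49, 7.91 and 6.38 CPM at day 2 (2.93, SE 0.22, adjusted p = 4.0e-09, then -2.42, SE 0.21, adjusted p = 5.2e-08, edgeR). In single cells it likewise stood at 13.7 CPM at day 0 and 12.7 CPM at day 2, against 33.3 CPM in Nanog-free and 93.9 CPM in Nanog-high cells of day 1. Pim2 rose on both days, from 11.2, 13.4 and 15.6 CPM over 124, 123 and 109 CPM to 503, 487 and 560 CPM. Skil rose by 0.99 and 1.70, and Foxp1 by 5.46 and 1.65. Id3 did not pass in the first day (0.70, adjusted p = 0.053, edgeR), but passed with the replicate number as a block (0.67), and rose in the second (1.02). Slc2a3 fell by 1.64 and 0.62, and Il6st by 0.88 and 0.98.

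Of 20 formative and epiblast genes 16 rose and 1 fell in the first day, and 11 rose and 5 fell in the second, beside 23.1% that rose and 25.4% that fell among those 9050 genes in the first day, and 16.2% and 22.3% in the second. The 5 of 20 that fell in the second day are near that share. Pou3f1 rose by 1.56 and 1.19, Fgf5 by 7.00 and 1.41, Lef1 by 3.04 and 0.71, and Sall2 by 1.42 and 2.39. Dnmt3b was at 163, 225 and 166 CPM, then 635, 654 and 622 CPM, then 1712, 1759 and 1658 CPM. Of the core genes 3 fell and 8 rose in the first day, and 4 fell and 1 rose in the second, of 16, so that those that fell are near the same shares on both days. Of the 15 genes with the lowest ratio 10 fell and 2 rose in the first day, and 11 fell and 0 rose in the second, among them Stk33 (by 4.27 and 4.80) and Pramel6 (by 2.93 and 4.54). Of the 15 with the highest ratio 10 rose and 0 fell in the first day, and 5 rose and 3 fell in the second, among them Tmem54 (7.63 and 2.58) and Enpp2 (9.09 and 3.66), which rose on both days. Xist rose by 5.19 and 3.27, from 0.298, 0.568 and 0.809 CPM over 24.5, 11.5 and 22.01 CPM to 198, 128 and 233 CPM.

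UMIs that overlap introns were counted apart, as unspliced. They made up 13.2% of spliced and unspliced UMIs in Nanog-free and 13.3% in Nanog-high cells. Nanog had 1 unspliced UMI in the 98 Nanog-free cells, 32 in intermediate and 23 in Nanog-high cells (beside 2084 spliced). The groups were chosen on Nanog UMIs, so these counts are a description. Unspliced UMIs of Esrrb had a log2 ratio of -1.49, against -0.87 for all its UMIs, of Tfcp2l1 -0.83, of Fbxo15 -0.72 and of Zfp42 -0.43. Of 49 named genes past 1.5-fold with an unspliced UMI, 10 had the opposite sign in unspliced UMIs, most on few counts, as Klf4 (8 against 9 UMIs), Ccnd2 (3 against 1), Fgf5 (13 against 21) and Pim2 (25 against 33). Of the 17 with at least 100 unspliced UMIs it was 2, Il6st (116 against 130 UMIs, 0.19 against -0.85 in all its UMIs) and Fermt1 (41 against 62, -0.24 against 1.72).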

How the data were processed

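TX1072 cells were profiled at days 0 to 4. The authors aligned reads with STAR 2.5.2b to mm10 masked at B6 and Cast SNPs and deposited raw UMI counts for each gene at each capture site, as totals, by allele and by splicing status, and raw bulk counts per gene from featureCounts. The deposited counts were not normalized. UMIs are meant to count distinct molecules within a cell. For the 4 spike-ins with a mean near Nanog's the variance was 16.7 to 20.9 times the mean. UMIs are thus not shown to be independent molecules. No correction was made here for molecules that shared a UMI.

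For single cells, UMIs were summed per group and divided by the group's total outside 75 ERCC rows. The log2 ratio had 0.5 UMI added to each sum, and genes needed 200 UMIs over both groups. Poisson and Clopper-Pearson intervals are at 95%. Poisson intervals take each UMI as independent, so they are narrower than the counting error that the spike-ins show. Clopper-Pearson intervals take each cell as independent and cover counting error. No p-value was computed from cells. Retained cells are those listed by the study. Promoter windows are from RefSeq.

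For bulk, edgeR 4.0.16 (R 4.3.3; TMM, filterByExpr, glmQLFTest, two-sided, adjusted p 0.05) was fitted to the 15 TX1072 libraries. CPM use TMM sizes, and the SE is the log2 change over the square root of F. DESeq2 1.42.0 was an alternative. The study states that each replicate was differentiated on its own day, so numbers pair libraries. As a check, deviations from the day means correlated with r = 0.03 to 0.37 (median 0.26) between libraries of the same number in 6 pairs, and -0.07 between others. Both the ratio and the bulk test were tested on simulated data. The simulated single-cell sums were Poisson counts without the wider spread of the real ones. They check the calculation of the ratio, and cannot show how often a gene passes 1.5-fold by chance. In its simulation the bulk test missed most genes changed by 1.5-fold and some changed by 2-fold. A bulk gene that did not pass is thus not shown to be unchanged.

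The genes named are Nanog and Xist, the 15 lowest and 15 highest ratios that kept their sign without each capture column (gene models without a name left out), and, of each of the 29 gene lists, members past 1.5-fold or up to 4 most abundant ones. Other list members and the bulk values of genes in the text were chosen after their values were seen. The groups, members and lists were chosen with earlier results of these data known. Alternatives covered scaling, depth, thresholds, cell filters, gene minimums, capture columns and, in bulk, tool, size factors, filter, replicate block and each replicate left out. Equal weights of the capture columns and leaving out each gene's top cell were added after the data were seen. The deletion lines and the SNP positions were not used here.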

Additional observations from a re-analysis of the deposited data

Results flagged for a closer look

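In capture column 6 the ratio of X-linked to autosomal UMIs stood apart from the other 9 columns, with a log2 ratio of Nanog-free over Nanog-high cells of -0.22. This column holds 5 Nanog-free cells, and without it the pooled value was -0.06. For Tet2, capture column 9 stood apart with a log2 ratio of 1.56, where the other columns were below 0. Of 28 values tested over the 10 columns, these 2 were past Dixon's 95% critical value, which chance passes in about 1 of 20.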

How the results depend on the processing

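The median log2 ratios of the naive factors (-0.89 to -0.58) and of the formative genes (0.23 to 0.37), the Xist difference and the X-linked ratio kept their sign under every alternative run, capture columns left out apart. With a capture column left out, the naive median ran from -0.90 to -0.75, the formative median from 0.22 to 0.40, the Xist difference from 11.2 to 18.3 points, the X-linked ratio from -0.08 to -0.06, and the counts of genes past 1.5-fold from 726 to 771 lower and 465 to 559 higher. The Xist difference was 2.46 points when 1 UMI was enough. The counts depended on depth and on the minimum level. They were 288 lower and 182 higher with cells thinned to 40000 UMIs, and 268 and 192 with groups also taken from thinned counts. They were 1170 and 823 at a minimum of 100 UMIs per gene, 322 and 206 at 500, and 5962 and 4561 without one. At 2-fold they were 216 and 113. With Nanog-high cells from 20 UMIs, 698 genes were lower and 754 higher, so that more were higher than lower there, unlike the 762 and 497 of the reported groups.

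In bulk, with the replicate block, which respects the pairing of the numbers, 4786 genes fell and 4718 rose from day 0 to day 1 and 3855 and 4192 from day 1 to day 2, against 4419, 4444, 3576 and 3827 without it. DESeq2 gave 4210, 4609, 3662 and 3719. With a replicate left out, the counts ran from 3055 to 4234, 3275 to 4145, 2394 to 3044 and 2551 to 3252. Id3 passed in the first day with the block (0.67), with DESeq2 size factors (0.73), without the filter (0.76) and without replicate 2 (0.85), and did not in the second without replicate 3 (0.92), nor did Lef1 (0.47). Dnmt3l passed in the second day without the filter (-0.37). The block changed no other call on the genes tried.

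Both groups come from the same culture, so whether another culture would give these values was not tested. They were spread unevenly over the 10 capture libraries, and the values within columns are the only ones in which chip position is shared. At 7.50 UMIs per cell, a Nanog count of 0 does not show absence of its mRNA. Depth, retained cells and XO-like cells differ between the groups. Their part in single genes was not tested beyond the alternatives above.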
